A study of Mus musculus with 6 samples.

Results

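Transitional B cells are the newly made B cells that leave the bone marrow and finish their maturation in the spleen. The 9 genes described here are used as marks of these cells and of the stages before them. They are Cd93, Vpreb3, Cd24a, Sox4, Myb, Tfdp2, Ebf1, Il7r and Erg, and they were chosen by symbol, with every probe that the platform annotation gives to them. That made 25 of the 45281 probes on the array. Of these, 10 were detected on all 6 arrays and 9 on none. The list was drawn up as a reading on the share of recent bone marrow emigrants among splenic B cells.

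The arrays, Illumina mouse BeadChips with 1 array per mouse, measured RNA of B cells freshly isolated from spleen in 3 Sle2 mice and 3 B6 mice. B6 mice are wild-type C57Bl/6. Sle2 mice are congenic on the same background and carry the Sle2 lupus susceptibility locus of chromosome 4 from strain NZM2410. The labels give no age, no sex and no sorting gate, so whether the isolation kept transitional cells in full was not tested. They also do not say that the mice were processed separately, so p-values measure the spread between these 6 samples. None of the 9 genes lies on chromosome 4, since Cd93 lies on chromosome 2, Tfdp2 on 9, Vpreb3, Cd24a and Myb on 10, Ebf1 on 11, Sox4 on 13, Il7r on 15 and Erg on 16.

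A B cell passes from pro-B to pre-B to immature stages in the bone marrow under the control of Ebf1, a factor that opens the B lineage program, and of the cytokine receptor chain Il7r. Myb, Sox4 and Erg are transcription factors of the early stages, and Tfdp2 is the DP partner of E2F factors. Vpreb3 is a small immunoglobulin-like protein of precursor and immature B cells. Cd93, known as AA4.1, and Cd24a, the heat stable antigen, are surface proteins by which transitional cells are gated in flow cytometry, and both decline as the cells mature. In RNA from a bulk population, fewer cells of a type and less RNA per cell cannot be told apart. What part of each member's RNA came from transitional cells was not tested.

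Of the 9 genes, 7 had a probe that could be tested, and 0 were called different between the strains by limma at an adjusted p under 0.05. Over all genes 1.04% were called, 97 of 9297. Leaving out a single mouse gave 29 (Sle2 mouse 1), 32 (Sle2 mouse 2), 30 (Sle2 mouse 3), 142 (B6 mouse 1), 56 (B6 mouse 2) and 38 (B6 mouse 3). Among the 13 tested probes of these genes 0 were called, against 1.06% of all kept probes. At an unadjusted p under 0.05 there were 2 of the 7 genes, Cd93 and Vpreb3, against 16.9% of all tested genes. Both had the lower mean in Sle2. The strains did not overlap for 2 of the 7 genes, Vpreb3 and Tfdp2, against 24.2% of all tested genes, and both were lower in Sle2, as were 9.45% of all. For probes this count was 4 of 13, against 23.1% of all kept probes. It includes a Tfdp2 probe that passed the detection filter only through the B6 mice. The mean was lower in Sle2 for 6 of the 7, and for 45.8% of all tested genes. The median difference, Sle2 minus B6 on the log2 scale, was -0.16 for these 7 genes and 0.02 for all tested genes. These counts leave out Cd24a and Erg, which passed no detection filter.

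The arrays themselves differed in ways that touch these genes. Median intensities before normalization ran from 50.4 to 56.7, and 17417 to 17923 probes were detected per array. Xist, the RNA of the inactive X chromosome, had values of 10.9 in Sle2 mouse 3 and 10.1 in B6 mouse 2 on its brightest probe. The other 4 arrays lay between 4.30 and 5.89, the highest of them B6 mouse 3. Eif2s3y, a gene of the Y chromosome, read 5.36 and 4.65 on the 2 arrays with high Xist and 8.33 to 8.68 on the other 4 (probe ILMN_1241001). The split may therefore be one of sex, which the labels do not give, and the strain values may come from mice of both sexes. Each strain held 1 array with a high Xist signal, and values with and without that pair are given below where they differ. Cd79b, the signalling chain of the B cell receptor, was abundant in all 6 mice, between 13.66 and 13.95. Transcripts of other cells were bright too, with the erythroid Hba-a1 between 13.49 and 14.38 and the macrophage gene C1qb between 11.21 and 11.8. The share of B cells in the preparations was not tested.

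**Figure D1:**
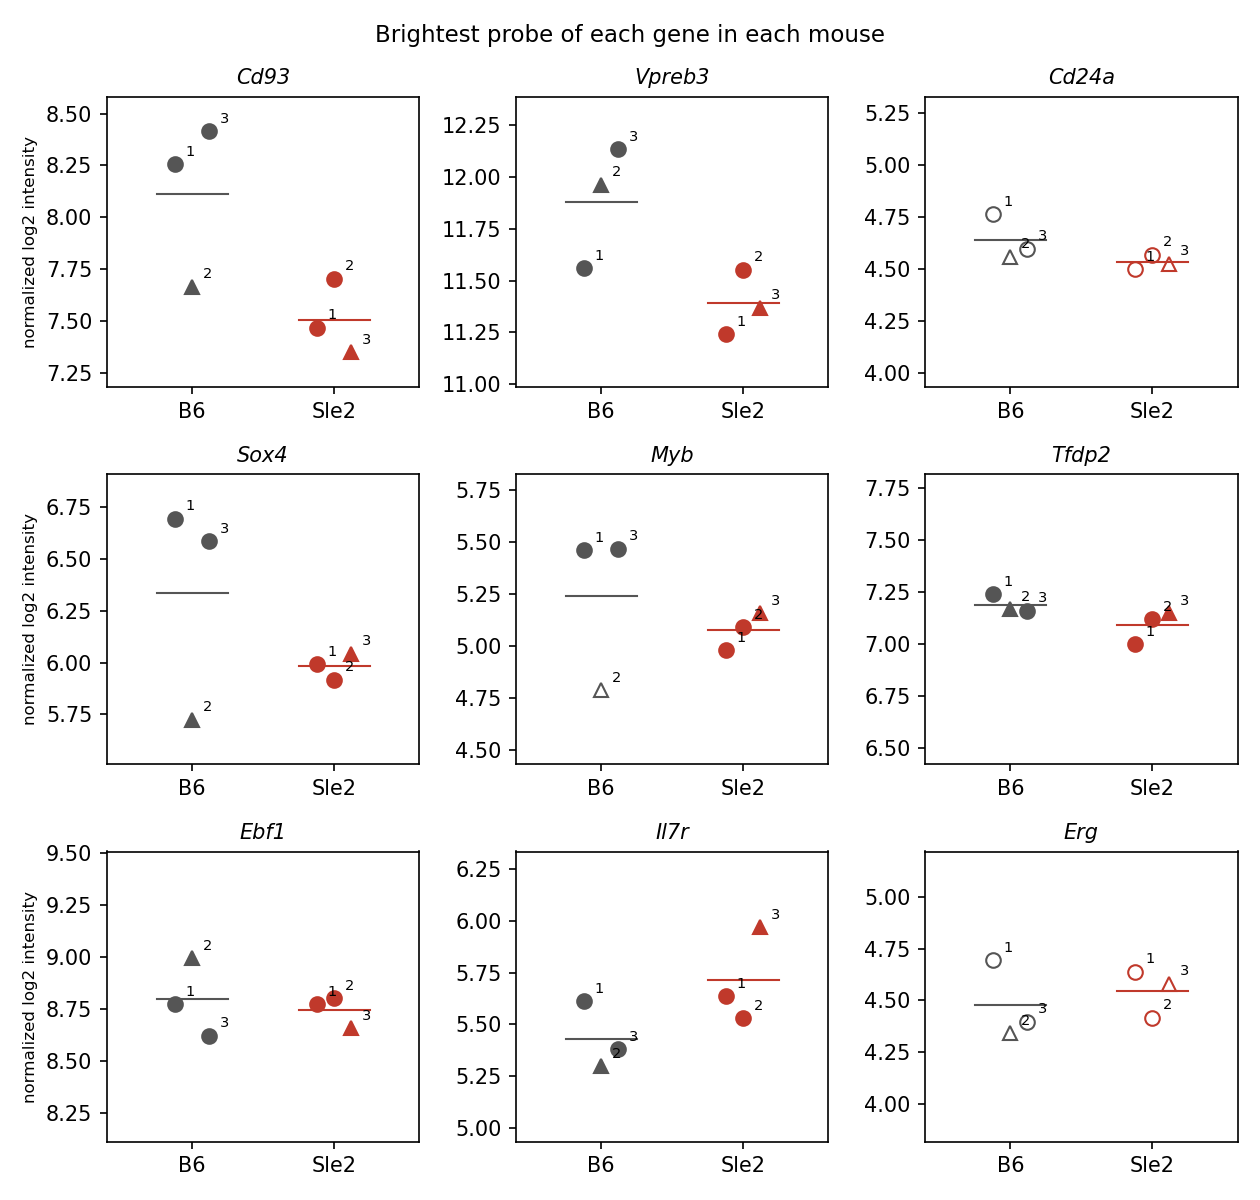
Normalized log2 intensity of the brightest probe of each of the 9 genes in each mouse, with the mouse number beside each point and a line at the mean of 3 mice per strain. Filled points were detected and open points were not, and triangles mark the 2 arrays with a high Xist signal; B6 mouse 2 lies far below B6 mice 1 and 3 for Cd93, Sox4 and Myb, while Cd24a and Erg are open in every mouse.

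Cd93 encodes the AA4.1 antigen, the surface protein that defines transitional cells by flow cytometry. Its brighter probe, ILMN_1226329, read 7.47, 7.70 and 7.35 in Sle2 mice 1, 2 and 3 and 8.26, 7.67 and 8.42 in B6 mice 1, 2 and 3. The 2 highest mice were B6 mice 1 and 3, while B6 mouse 2 lay inside the Sle2 range, so the strains overlapped. Cd93 averaged 7.51 ± 0.18 in the Sle2 mice (SD, n = 3) and 8.11 ± 0.39 in the B6 mice (SD, n = 3). Its difference was -0.61 on the log2 scale, with a 95% confidence interval of -1.04 to -0.17, a mean 1.52-fold lower in Sle2. The limma adjusted p was 0.176, and the exact two-sided permutation p was 0.2, where 0.1 is the smallest that 3 against 3 mice allow. In rank, 52 of 9297 tested genes had a lower difference than Cd93, and 651 had a smaller limma p. The SD of Cd93 within strains was larger than that of 94.8% of tested genes.

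The dimmer Cd93 probe, ILMN_1226829, was also detected in every mouse. It read 6.50, 6.44 and 6.29 in Sle2 and 6.73, 6.34 and 6.94 in B6. The order of the B6 mice was the same as on the brighter probe, with mouse 2 lowest and mouse 3 highest. The difference was -0.26 (95% confidence interval -0.61 to 0.09, limma adjusted p = 0.42). Without B6 mouse 2 the brighter probe's difference was -0.83 (limma adjusted p = 0.0535). In the 4 arrays with a low Xist signal it was -0.75 (limma adjusted p = 0.169), with both Sle2 mice below both B6 mice. In the 2 arrays with a high Xist signal it was -0.32, from 1 mouse per strain.

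Vpreb3 had 1 probe, ILMN_2469253, which was bright in every mouse, at 2694 to 4594 intensity units before normalization. The values were 11.24, 11.55 and 11.37 in Sle2 and 11.56, 11.96 and 12.13 in B6. All 3 Sle2 mice lay below all 3 B6 mice, but the gap between Sle2 mouse 2 and B6 mouse 1 was only 0.0052 on the log2 scale. Vpreb3 averaged 11.4 ± 0.16 in the Sle2 mice (SD, n = 3) and 11.9 ± 0.29 in the B6 mice (SD, n = 3). The difference was -0.50 (95% confidence interval -0.85 to -0.14), a mean 1.41-fold lower in Sle2, with a limma adjusted p of 0.177 and an exact two-sided permutation p of 0.1. Among 9297 tested genes, 108 had a lower difference than Vpreb3, and 659 had a smaller limma p. The SD of Vpreb3 within strains was larger than that of 86% of tested genes. Unlike Cd93, Vpreb3 was high in B6 mouse 2, and its difference was -0.45 in the 4 arrays with low Xist signal and -0.59 in the other pair. Leaving out single mice moved it between -0.66 without B6 mouse 1 (limma adjusted p = 0.0558) and -0.36 without B6 mouse 3 (limma adjusted p = 0.362). On intensities before normalization the strains overlapped, since B6 mouse 1 read 2774 and Sle2 mouse 2 read 3150.

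The promoter of Vpreb3 is shown because this gene had the lowest difference among members with a promoter entry, and that of Il7r because it was the member whose mean was higher in Sle2. Both are the 250 bases before the transcription start, from RefSeq on GRCm38.p6, written 5′ to 3′ on the gene's own strand. Vpreb3 is at chr10:75948050-75948299 on the plus strand and Il7r at chr15:9529877-9530126 on the minus strand. Capitals mark matches to the octamer ATTTGCAT, which POU factors bind in immunoglobulin promoters, or to the MYB motif TAACNG, on either strand.
Vpreb3: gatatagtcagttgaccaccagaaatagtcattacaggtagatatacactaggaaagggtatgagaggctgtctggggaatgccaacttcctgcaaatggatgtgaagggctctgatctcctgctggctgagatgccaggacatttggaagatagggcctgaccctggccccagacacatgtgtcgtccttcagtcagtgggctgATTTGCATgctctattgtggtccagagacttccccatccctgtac
Il7r: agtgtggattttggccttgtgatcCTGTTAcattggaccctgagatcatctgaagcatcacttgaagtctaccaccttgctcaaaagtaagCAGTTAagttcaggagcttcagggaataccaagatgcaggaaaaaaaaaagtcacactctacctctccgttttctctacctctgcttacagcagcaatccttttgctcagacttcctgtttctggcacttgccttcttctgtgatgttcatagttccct

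The octamer of Vpreb3 spans positions -45 to -38 from the start. The octamer was in 1.6% of the 32851 mouse promoters of the table and in 1 of the 11 promoters of the member genes. Il7r held 2 MYB matches on the strand opposite to the gene, and this motif was in 19.8% of all promoters and in 3 of the 11. The Ebf1 motif CCCNNGGG was in 11.8% of all promoters and, among the member genes, in 1 promoter of Erg. The Sox4 motif AACAAAG was in 5.03% of all promoters and in 1 promoter of Tfdp2, and the ETS motif CCGGAAG was in 6.91% of all promoters and in 0 of the 11. Entries were found for 7 of the 9 genes, all except Cd93 and Cd24a.

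Cd24a encodes a small glycolipid-anchored protein that is high on transitional cells. Its only probe in the annotation, ILMN_1237868, was not detected on any array, at 4.50, 4.57 and 4.53 in Sle2 and 4.76, 4.56 and 4.60 in B6. Erg, an ETS family factor of stem cells, early B cells and endothelium, had a pair of probes with no detection on any array. On the brighter of them, ILMN_1260248, the Erg values lay between 4.42 and 4.64 in Sle2 and between 4.34 and 4.69 in B6. The probes of both genes read at the level of the negative controls in both strains, and no difference is given for them. Whether these probes report the transcripts was not tested, so the values do not show that the RNA was absent.

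Sox4 encodes an HMG box factor needed for pro-B cell survival. Its brighter probe, ILMN_2727116, read 5.99, 5.92 and 6.04 in Sle2 and 6.69, 5.72 and 6.59 in B6. B6 mice 1 and 3 were the highest of the 6 and B6 mouse 2 the lowest, so the 3 Sle2 mice lay between them. Sox4 averaged 5.98 ± 0.06 in the Sle2 mice (SD, n = 3) and 6.34 ± 0.53 in the B6 mice (SD, n = 3), and its SD in B6 was larger than that of 98.9% of tested genes. The Sox4 difference was -0.35 (95% confidence interval -0.87 to 0.17, limma adjusted p = 0.458). Without B6 mouse 2 it was -0.66 (limma adjusted p = 0.0552), without B6 mouse 1 it was -0.17 and without B6 mouse 3 it was -0.22. In the 4 arrays with low Xist signal it was -0.69 (limma adjusted p = 0.157), while in the other pair the Sle2 mouse was higher by 0.32. The dimmer Sox4 probe, ILMN_2893417, read 4.86, 5.002 and 4.88 in Sle2 and 4.82, 4.53 and 4.53 in B6, with all Sle2 mice above all B6 mice, opposite to the brighter probe's means. It was detected only in Sle2 mouse 2, by a small margin, and was not tested.

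Myb, the proto-oncogene that drives proliferation and survival of B cell precursors, was close to the detection limit. Its 1 tested probe, ILMN_1219713, is annotated to a cDNA record. It read 4.98, 5.09 and 5.16 in Sle2 and 5.46, 4.79 and 5.47 in B6, with no detection in B6 mouse 2. The order of the mice was like that of Sox4, with B6 mice 1 and 3 highest and B6 mouse 2 lowest. The Myb difference was -0.16 (95% confidence interval -0.57 to 0.25, limma adjusted p = 0.673). It was -0.40 without B6 mouse 2 (limma adjusted p = 0.205), -0.05 without B6 mouse 1 or 3, and -0.43 in the 4 arrays with low Xist signal. In the other pair the Sle2 mouse was higher by 0.37. A further Myb probe, ILMN_2683910, was detected in B6 mice 1 and 2 and in no Sle2 mouse, with 4.46, 4.61 and 4.64 in Sle2 and 4.94, 4.98 and 4.75 in B6. It passed on too few arrays to be tested, and all its values lay near the detection limit.

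Tfdp2 encodes DP2, which pairs with E2F proteins to bind genes of the cell cycle. Its probes differed in direction. The brightest, ILMN_2488405, read 6.9998, 7.12 and 7.15 in Sle2 and 7.24, 7.17 and 7.16 in B6. The strains were separate by a gap of 0.0109, and the difference was -0.10 (95% confidence interval -0.31 to 0.11, limma adjusted p = 0.617). A pair of weaker probes differed more, and in opposite directions, although both are annotated to the same transcript record.

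For Tfdp2 probe ILMN_1238094 the values were 4.95, 4.62 and 4.39 in Sle2 and 5.45, 5.06 and 5.65 in B6. All 3 Sle2 mice lay below all 3 B6 mice, and the probe was detected in 1 Sle2 mouse and in all B6 mice. It passed the detection filter only through the B6 mice. Its fitted difference was -0.73 (limma adjusted p = 0.109), but 2 of the 3 Sle2 values lie at background, so the size is not measured on that side. Tfdp2 probe ILMN_2760211 had 5.86, 5.57 and 6.27 in Sle2 and 5.54, 4.79 and 5.61 in B6. Here the Sle2 mice were mostly higher, with a difference of 0.59 (95% confidence interval 0.04 to 1.14, limma adjusted p = 0.264) and overlap between Sle2 mouse 2 and B6 mouse 3. The fourth tested Tfdp2 probe, ILMN_2427971, was at 0.19 (limma adjusted p = 0.523). Averaged over its 4 tested probes, Tfdp2 was at -0.01 (limma adjusted p = 0.976). This average joins probes of opposite sign and includes ILMN_1238094, whose size was not measured in Sle2. It therefore does not show that Tfdp2 was unchanged. By gene order on chromosome 9, the nearest called genes were Tent5a, 25 tested genes before Tfdp2, and Tmem108, 28 tested genes after it. Further called genes lay from there up to Hemk1, 57 tested genes after Tfdp2, with genes that were not called among them. Between Tmem108 and Hemk1 the called genes were Cpne4, Mrpl3, Aste1, Pik3r4, Col6a4, Dusp7, Rpl29, Pcbp4, Parp3 and Mapkapk3. Whether these called genes bear on Tfdp2 was not tested.

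**Figure D2:**
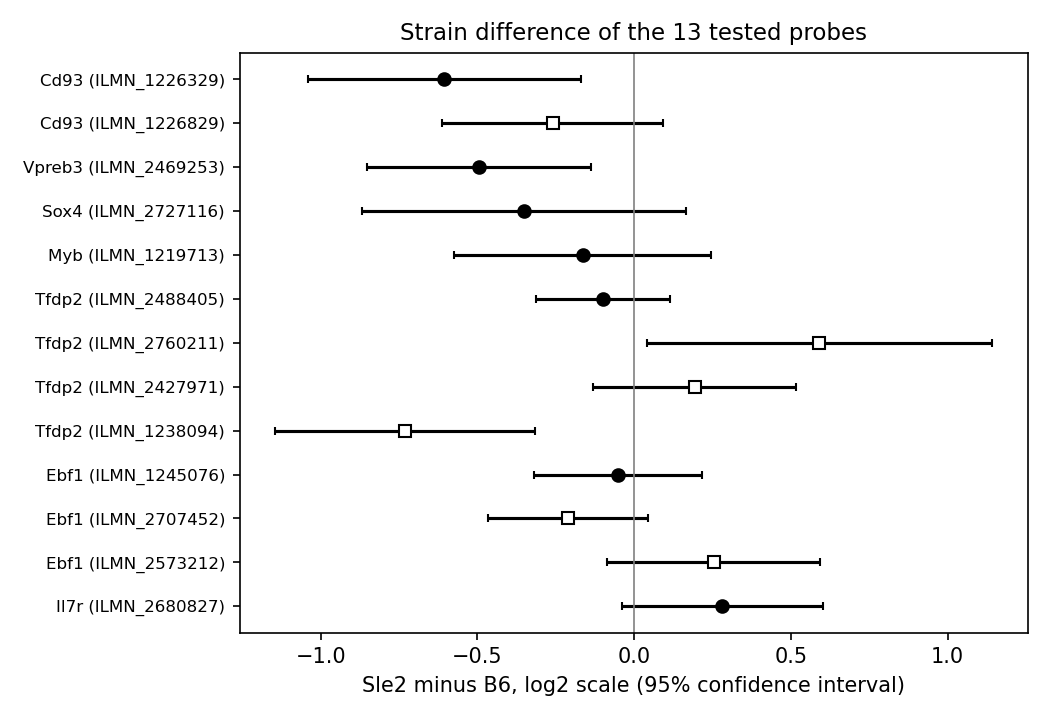
Difference between strains, Sle2 minus B6 on the log2 scale, for the 13 tested probes with limma's 95% confidence interval, not adjusted for the number of probes. Filled circles are the brightest tested probe of a gene and open squares its other probes; the Cd93 and Vpreb3 circles lie left of 0 with their intervals, and the Tfdp2 probes lie on both sides.

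Ebf1, the factor that sets B lineage identity, was detected by 3 probes in every mouse. The brightest, ILMN_1245076, read 8.77, 8.80 and 8.66 in Sle2 and 8.77, 8.9958 and 8.62 in B6. The ranges lay over each other, with a difference of -0.05 (95% confidence interval -0.32 to 0.22, limma adjusted p = 0.853). This sign turned with arrays scaled to equal medians, without B6 mouse 2 and in the 4 arrays with low Xist signal. With equal medians Ebf1 was at 0.08, while the median of all tested genes was 0.14. Ebf1 probe ILMN_2707452 was at -0.21 (limma adjusted p = 0.373). Ebf1 probe ILMN_2573212 was at 0.25 (limma adjusted p = 0.417), with the 3 Sle2 mice above the 3 B6 mice by a gap of 0.0067.

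Il7r, the interleukin 7 receptor chain of pro-B and pre-B cells, is also carried by naive T cells. It was the 1 member whose mean was higher in Sle2. Its detected probe, ILMN_2680827, read 5.64, 5.53 and 5.97 in Sle2 and 5.61, 5.30 and 5.38 in B6. Sle2 mouse 3 was the highest, and B6 mouse 1 lay above Sle2 mouse 2. The Il7r difference was 0.28 (95% confidence interval -0.04 to 0.60, limma adjusted p = 0.345), and 0.09 in the 4 arrays with low Xist signal. In the pair with high Xist signal it was 0.67, from 1 mouse per strain. It was 0.15 without Sle2 mouse 3 and 0.14 without background correction. The other 4 Il7r probes were not detected on any array.

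Most genes of the T cell list also had the higher mean in Sle2. The list's median difference was 0.36 over 8 tested of 12 genes, with 7 higher in Sle2 and 0 called. Bcl11b, a T lineage factor, was at 0.69 (limma adjusted p = 0.0678), Zap70 at 0.50 and Cd3g at 0.41. The summed level of the tested T cell genes was 11.3 to 11.4 on the log2 scale in Sle2 and 11.3 to 11.5 in B6. The sums overlapped, but they were set mostly by Cd2, at 10.91 to 11.03 in Sle2 and 10.96 to 11.25 in B6. Cd3d read only 6.54 to 7.20, and the part of B cells in the Cd2 value was not tested. Cd2 was the 1 tested gene of the list with the lower mean in Sle2 (-0.14, limma adjusted p = 0.537). Cd4 and Cd8a were detected on no array. The part of T cells in the Il7r value was not tested.

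The spread within strains set these genes apart from each other. The SD within strains, pooled over both, was 0.307 for Cd93, 0.378 for Sox4 and 0.284 for Myb, against a median of 0.135 over all tested genes. It was 0.236 for Vpreb3, 0.199 for Il7r, 0.144 for Ebf1 and 0.0642 for Tfdp2. The Sox4 and Myb spread lay mostly in B6, with SDs of 0.53 and 0.39 there and 0.06 and 0.09 in Sle2. After each gene was centred on its own mean, the values of Sox4 and Myb lay 0.138 apart over the 6 mice (root mean square, log2 scale) and those of Tfdp2 and Ebf1 0.139. This distance is not scaled for spread, and Tfdp2 and Ebf1 both varied little. Cd93 lay 0.22 from Sox4 and 0.302 from Vpreb3, and Cd93 and Il7r were farthest apart at 0.536. The highest mouse was B6 mouse 3 for 3 of the 7 genes, and the lowest was B6 mouse 2 for 3 of them.

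Among all tested genes with an established symbol, those closest to Cd93 by the same distance over the 6 mice were Proca1 (0.161), Pithd1 (0.162), Rcan3 (0.172), Sox5 (0.172) and Mea1 (0.173). Sox5 encodes a SOX family factor, and Pithd1 and Rcan3 lie on chromosome 4. Those closest to Vpreb3 were Treml2 (0.0543), Ndufb3 (0.0594), Abhd14a (0.0645), Psmb7 (0.0678) and Mrps16 (0.0682). Treml2 encodes a receptor found on B cells, Ndufb3 a subunit of respiratory complex I, Psmb7 a proteasome subunit and Mrps16 a mitochondrial ribosomal protein. None of these 10 genes was called, with limma adjusted p between 0.0686 and 0.347.

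The stages on either side of the transitional cell were read with lists of other genes. Of 11 early B lineage genes, 2 could be tested and 0 were called. Vpreb1, a surrogate light chain gene, was at -0.02 (limma adjusted p = 0.969) and Kit, the stem cell factor receptor, at 0.29 (limma adjusted p = 0.588). Rag1, Rag2, Dntt, Vpreb2, Il2ra and Lef1 were detected on no array. Of 14 B lineage identity genes and partners of Ebf1, 12 were tested and 0 called, with 9 lower in Sle2 and a median of -0.12. With arrays scaled to equal medians that list median was 0.02, with 5 of 12 lower, but the median of all tested genes then rose to 0.14. The list median was -0.08 without Sle2 mouse 1 and -0.06 without B6 mouse 2. The smallest p values were those of Tcf3, the E2A factor (-0.27, limma adjusted p = 0.203), Ikzf3, Aiolos (-0.27, limma adjusted p = 0.235), and Foxo1 (-0.24, limma adjusted p = 0.333).

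Of 11 genes of survival, selection and retention of new B cells, 9 were tested and 0 called, with a median of -0.01. The sign of this median turned without Sle2 mouse 1 (0.03), without B6 mouse 3 (0.04) and with equal medians (0.14). With equal medians the median of all tested genes was 0.14 as well. Bmf, a BH3-only promoter of apoptosis, read 6.74, 6.86 and 6.74 in Sle2 and 7.07, 7.33 and 7.83 in B6. The strains did not overlap, and the Bmf difference was -0.63 (limma adjusted p = 0.14). Bcl2, which opposes Bmf, was at 0.23 (limma adjusted p = 0.265) and the chemokine receptor Cxcr4 at -0.20 (limma adjusted p = 0.533). Tnfrsf13c, the BAFF receptor that transitional cells need to survive, was at -0.01.

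Among 12 mature follicular genes, 9 were tested and 0 called, with a median of -0.07. With equal medians it was 0.10, against 0.14 for all tested genes. With single mice left out it was -0.15 without Sle2 mouse 3 or B6 mouse 1. It reached -0.01 without B6 mouse 2 and 0.01 without Sle2 mouse 2. Cr2, the complement receptor CD21 that is gained as cells mature, was at 0.62 (limma adjusted p = 0.0878), Klf2 at -0.38 (limma adjusted p = 0.179) and Ccr7 at -0.25 (limma adjusted p = 0.383). Among 10 marginal zone genes, which include Cr2 as well, 9 were tested and 8 had the higher mean in Sle2, with a median of 0.19. The summed level of this list was 13.6, 13.8 and 13.6 on the log2 scale in the Sle2 mice and 13.4 in each B6 mouse. Most of that sum was Mzb1, at 13.03 to 13.19 in Sle2 and 12.83 to 12.99 in B6. Mzb1 was not called, with a difference of 0.19 (limma adjusted p = 0.362). The part of marginal zone cells in the Cd93 and Vpreb3 values was not tested. Cd1d1, a lipid-presenting molecule, rose by 0.56 (limma adjusted p = 0.0391) and Dtx1, a Notch target, was at 0.71 (limma adjusted p = 0.148). The Cd1d1 call was lost in the fit with the Xist covariate and without Sle2 mouse 1 or 2, and in the 4 arrays with low Xist signal, where 0 genes of these lists were called. Plasma cell genes had a median of 0.20 over 4 tested of 6, with 0 called, Derl3 at 0.66, Xbp1 at 0.23 and Sdc1 at 0.17. The plasma cell median was 0.12 without Sle2 mouse 1, 0.38 without B6 mouse 1 and 0.07 without B6 mouse 3.

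Some member genes are shared with cells that a B cell preparation can carry along, so lists for those cells were read too. Cd93 and Erg are also expressed by endothelium, where 2 of 10 genes were tested, Pecam1 at -0.31 (limma adjusted p = 0.171) and Esam at -0.30 (limma adjusted p = 0.51). Their summed level was 9.93 to 10.1 in Sle2 and 10.3 to 10.4 in B6, a sum set almost wholly by Pecam1, which B cells also express. Esam read 6.26, 6.03 and 6.33 in Sle2 and 6.996, 6.04 and 6.48 in B6. B6 mouse 2 lay inside the Sle2 range for Esam as it did for Cd93. The highest mouse differed, being B6 mouse 1 for Esam and B6 mouse 3 for Cd93. Kdr, Tek, Tie1, Emcn, Robo4 and Sox18 were detected on no array, and Cdh5, the defining cadherin, on at most 2. The megakaryocyte and platelet list was lower in Sle2 for 6 of 6 tested genes of 9, with a median of -0.34 and 0 called. Without B6 mouse 3 the median was 0.01, with 3 of 6 lower, and without B6 mouse 2 it was -0.55. The summed level was highest in B6 mouse 3, at 9.35 against 8.25 to 8.59 in the other mice. Clec1b was at -0.53 (limma adjusted p = 0.0747), Vwf at -0.54 and Itga2b at -0.29. The part of these cells in the Cd93 value was not tested.

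Cd93 is carried by monocytes as well, whose list had a median of 0.05 over 7 tested of 9 genes with 0 called, Spic at -0.41, Lyz2 at 0.44 and Marco at 0.35. The monocyte median lay between -0.13 without B6 mouse 2 and 0.21 without Sle2 mouse 2, and below 0 also without Sle2 mouse 1 (-0.03) or 3 (-0.05). Cd24a and Myb belong also to the erythroid lineage, whose list had a median of 0.23 over 7 tested of 11 genes with 0 called, Sptb at 0.71, Slc4a1 at 1.13 and Tfrc at -0.49. The erythroid median was 0.15 without Sle2 mouse 3, 0.09 without B6 mouse 1, 0.08 without B6 mouse 2, 0.53 without B6 mouse 3 and -0.0022 in the 4 arrays with low Xist signal. Neutrophil genes had a median of 0.30 over 7 tested of 9, with 0 called, Ltf at 0.86, Camp at 0.77 and Ngp at 0.37. The neutrophil median was -0.16, with 4 of 7 lower, without B6 mouse 1, 0.20 without B6 mouse 2 and 0.76 without B6 mouse 3. Natural killer and innate lymphoid genes had a median of 0.19 over 5 tested of 8, with 0 called, Prf1 at 0.47, Klrd1 at 0.37 and Klrb1c at 0.19. The natural killer median was -0.04, with 3 of 5 lower, without Sle2 mouse 1 and -0.05, with 4 of 5 lower, without B6 mouse 2, and it was 0.34 without Sle2 mouse 3 and 0.36 without B6 mouse 3. Of 5 stem and progenitor genes, only Meis1 was tested, at 0.12, and Cd34, Gata2 and Hlf were detected on no array.

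**Figure D3:**
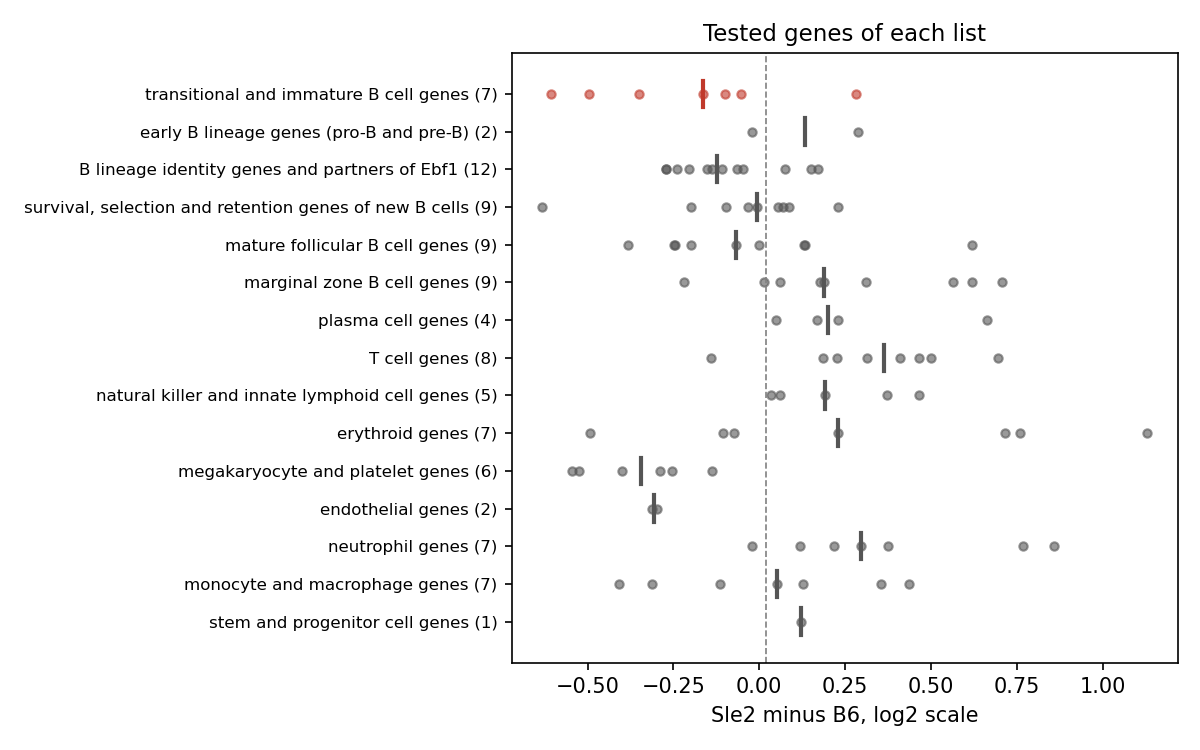
Difference between strains, Sle2 minus B6 on the log2 scale, for the tested genes of the 9 member genes (red) and of 14 other lists, with the number of tested genes in brackets. Each point is a gene, thick lines are list medians and the dashed line is the median of all tested genes at 0.02; 6 of the 7 red points lie left of 0 and Il7r lies right of it.

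The member values were also read within the arrays of like Xist signal, a split chosen after the data were seen. In the 4 arrays with low Xist signal, the strains did not overlap for 6 of the 7 genes, 5 of them lower in Sle2. The same held for 42.6% of all tested genes in either direction and for 17.7% in the lower direction. The split leaves out B6 mouse 2, whose values made the strains overlap for Cd93, Sox4 and Myb. For these genes the lack of overlap follows from that choice, so the member count is no added support for a strain difference. The median of the 7 genes was -0.43 in the 4 arrays, and 0 of them were called. The Sox4 and Myb differences had opposite signs in the 4 arrays and in the pair with high Xist signal, and this contrast, from 1 mouse per strain in that pair, was not tested. With the Xist value as a covariate in all 6 arrays, Cd93 was at -0.62 (limma adjusted p = 0.127) and Vpreb3 at -0.49 (limma adjusted p = 0.22).

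**Figure D4:**
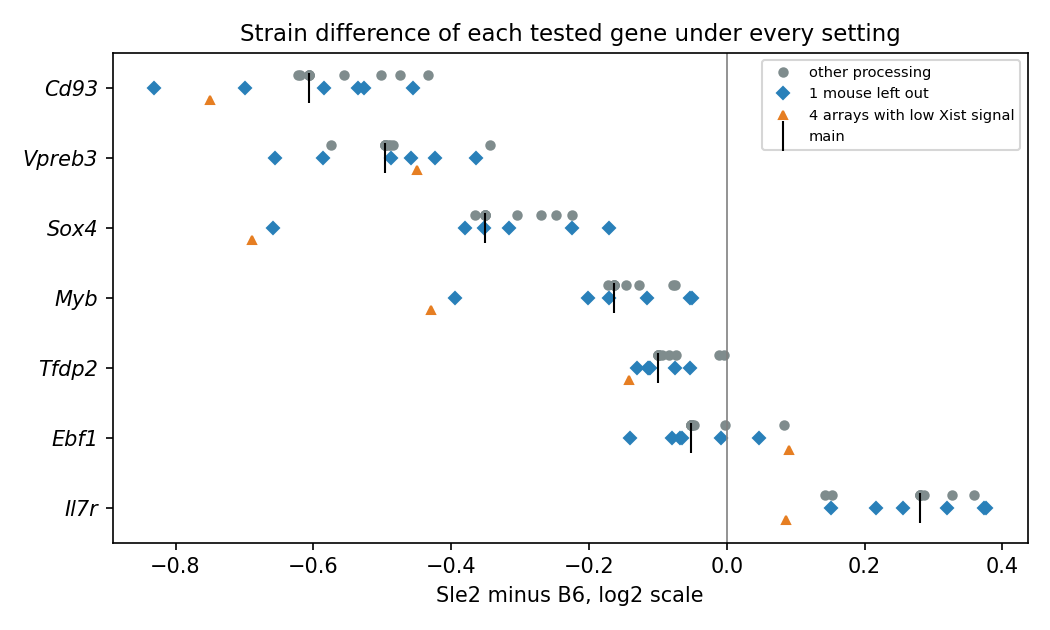
Difference between strains, Sle2 minus B6 on the log2 scale, for the 7 tested genes under the 17 alternatives (points by kind) and as reported (black bar). Cd93, Vpreb3, Sox4, Myb and Tfdp2 stay left of 0 under each alternative that tested them, Myb reaching -0.05 and Tfdp2 -0.005. Ebf1 crosses 0, and Sox4 and Myb lie farthest left without B6 mouse 2 and in the 4 arrays with low Xist signal.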

How the data were processed

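The deposited table gave 1 intensity per probe and array, and the submitters' processing notes name GenomeStudio. From the values, these intensities were linear and neither background-subtracted nor normalized. Beside each intensity stood a detection p-value, per the file headers. A second deposited table, the series matrix, held intensities that, from the values, were quantile-normalized and linear, on the arrays' own direction and uncentred, with medians of 53.6264 to 53.6581; it served as an alternative. How it was made is not stated in these sources.

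Strain and mouse number came from the titles. Of 45281 probes, 34885 had 1 symbol, 18 several and 10378 none. Symbols were updated through RefSeq gene identifiers (GRCm38.p6), which matched 34807 probes. Intensities were corrected with normexp on 936 negative controls per array, offset 16, then quantile-normalized on the log2 scale by neqc (limma 3.58.1 in R 4.3.3). The 17861 probes with a detection p under 0.05 on at least 3 of 6 arrays were fitted with lmFit and eBayes, and the two-sided p-values were adjusted by Benjamini-Hochberg across them. A gene was represented by its brightest kept probe (9297 genes) and called at an adjusted p under 0.05. Means carry the SD of 3 mice. A summed level is the log2 of the summed linear values of a list's tested genes. Precision is limited by the number of arrays.

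Named genes were the 9 members, for each list its called genes or up to 3 with the smallest p, and the 5 genes nearest to Cd93 and to Vpreb3. Tnfrsf13c, Cd79b, Cd2, Hba-a1, C1qb, Mzb1, Xist, the called genes of chromosome 9 and genes on no array were named after their values were seen. The members and lists were chosen with earlier results of these data known, so no set test was made. Some genes of the other lists are not reported here. The alternatives, listed with their effect in the closing section, changed background correction, scaling, filter, prior, array weights, probe summary, Xist covariate, mouse number as a block and the mice included; the 4 low-Xist arrays were added after the data were seen.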

Additional observations from a re-analysis of the deposited data

How the results depend on the processing

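None of the 7 tested genes was called under any of the 17 alternatives, among which 16 were planned, and their adjusted p values were not below 0.0535. Of 117 gene values under these alternatives, 114 kept their sign, and those that did not were Ebf1 with arrays scaled to equal medians (0.0834), in the 4 low-Xist arrays (0.0902) and without B6 mouse 2 (0.0473, in a range of -0.141 to 0.0473 with single mice left out). Myb and Il7r did not pass the strict filter (detection p under 0.01 on all 6 arrays). The median of the tested genes, -0.164 as reported, was -0.0748 without background correction, -0.0836 with series matrix values, -0.351 with the strict filter and -0.429 in the low-Xist arrays, and -0.395 to -0.0756 with single mice left out. Without background correction Sox4 was at -0.225, Myb at -0.0748 and Il7r at 0.142. The causes were not tested, except that the strict filter leaves 5 genes. Called genes over all numbered 200 without background correction, 245 with equal medians, 187 with series matrix values, 56 with no filter, 285 with a trended robust prior, 51 with the Xist covariate, 26 in the low-Xist arrays and 29 to 142 with single mice left out. With equal medians 26 of 245 were lower in Sle2, against 36 of 97, and the all-gene median difference was 0.14 in place of 0.02. Called genes of the other lists numbered 6 with equal medians or the trended prior, 2 with no background correction, series matrix values, array weights or the replicate block, 0 with the Xist covariate or in the low-Xist arrays, and 0 to 3 with single mice left out. The mouse number as a replicate block gave 72 called genes, 60 of them shared with the 97, and no member. Same-numbered mice deviated together with correlations of 0.20, 0.13 and 0.0393, and Sle2 mouse 3 was closer to B6 mouse 2 (0.0677), so the numbers were not taken as pairs. Signal near background limits Myb, Il7r, Cd24a and Erg.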

Other observations

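Several transcripts of other lists shared the low value of B6 mouse 2 that was seen for Cd93, Sox4 and Myb, and they were picked after their values were seen. Kit, the receptor of early progenitors and mast cells, read 6.19, 5.10 and 5.81 in B6 mice 1, 2 and 3 and 5.80 to 6.24 in Sle2. Klrd1, a natural killer receptor chain, read 8.22, 6.91 and 8.16 in B6 and 7.88 to 8.50 in Sle2. Nkg7, a granule protein of cytotoxic cells, read 8.83, 7.67 and 8.67 in B6 and 7.90 to 8.75 in Sle2. The summed level of the natural killer list was 9.95 in B6 mouse 2, against 10.4 to 10.9 in the other 5 mice. In Sle2 mouse 3, the other array with a high Xist signal, Klrd1 and Nkg7 were the lowest of the 3 Sle2 mice, at 7.88 and 7.90, as Cd93 was at 7.35, while Sox4 at 6.04 and Myb at 5.16 were the highest.

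In B6 mouse 3 the platelet chemokine Ppbp read 7.87, against 6.24 to 6.43 in the other mice, and the neutrophil transcript S100a8 read 10.7, against 8.66 to 9.89. This mouse also had the highest Cd93 and Vpreb3 values, and without it the differences were -0.46 for Cd93 and -0.36 for Vpreb3.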
